A study of Mus musculus with 2 samples.

Results

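Dendritic cells of the mouse uterus were followed in 2 droplet libraries, one from animals given doxorubicin with anti-Müllerian hormone and one from animals given doxorubicin alone. They were chosen by their own counts. A barcode passed with 1000 or more UMIs (unique molecular identifiers, 1 per captured transcript), 500 or more genes and no more than 15% of its UMIs from mitochondrial genes. It then had to hold fewer than 10 UMIs over C1qa, C1qb and C1qc, at least 20 over the class II genes H2-Aa, H2-Ab1, H2-Eb1 and Cd74, and at least 2 over Cd209a, Flt3, Xcr1, Clec9a, Napsa, Wdfy4 and Siglech, with at most 3 of Col1a2 and at most 1 of Epcam. This rule gave 199 cells of the 14848 that passed the filter, 71 of 7065 in DOX plus AMH and 128 of 7783 in DOX. They were 1.00% of the DOX plus AMH barcodes (exact 95% interval 0.786 to 1.27) and 1.64% of the DOX barcodes (1.37 to 1.95). Among blood-derived barcodes, meaning dendritic, C1q-high, other myeloid and lymphoid barcodes together, they were 21.6% in DOX plus AMH (17.3 to 26.4) and 29.4% in DOX (25.2 to 34.0).

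The DOX plus AMH animals received doxorubicin, an anthracycline that poisons topoisomerase II, at 3 mg/kg and anti-Müllerian hormone (AMH), a hormone of the TGF-beta family, at 0.75 mg/kg, and the DOX animals received doxorubicin at 3 mg/kg without AMH. Uteri were collected 4 h after treatment, and in each group those of 5 animals were pooled before digestion with papain and collagenase A, so every group is 1 library and both groups carry doxorubicin. The labels give no strain, and the series text's schedule of 2 weekly doses to mice of postnatal day 25 is stated for bulk sequencing, not for these libraries. With 1 library per group no difference could be tested, and intervals here cover counting error only, not the spread between animals.

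Of the 10000 cells collected per group, the files hold 8083 barcodes with 97887259 UMIs in DOX plus AMH and 9258 barcodes with 129530270 UMIs in DOX. The dendritic cells held 1070916 UMIs in DOX plus AMH and 1366571 in DOX, with medians of 13171 and 10034 UMIs and 3609 and 2662 genes per cell. The barcodes outside the blood-derived populations ran the other way, at medians of 10252.5 UMIs in DOX plus AMH and 14274.5 in DOX. The 2 libraries shared 17 barcodes, and no barcode was a dendritic cell in both. Amhr2, the receptor of AMH, had 0 UMIs in the dendritic cells of both libraries, which at a depth of 4000 UMIs per cell allows a share of cells with a UMI of up to 5.4% in DOX plus AMH and 3.1% in DOX.

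Dendritic cells take up antigen, cut it with lysosomal proteases and show the peptides to T cells on class II molecules. Their conventional forms depend on the cytokine receptor Flt3: type 1 cells carry the chemokine receptor Xcr1 and the dead-cell receptor Clec9a and present dead-cell antigen on class I, while type 2 cells carry lectins such as Cd209a. They sense nucleic acids, and type I interferon acting on the receptor Ifnar1 and Ifnar2 brings STAT2 and IRF9 to the interferon-stimulated response element (ISRE) of its target genes. In the uterus they lie in the endometrium and are known for their part in decidua formation.

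Promoters of 4 genes that were among those most apart between the libraries are shown first, since the comparison turns on them: Ifit3, Rsad2 and Isg15 of the interferon-induced list, and the chemokine gene Cxcl10. They are RefSeq windows of 300 bases in GRCm38.p6, written 5′ to 3′ along the gene. Capitals mark matches on either strand to the core of the ISRE, which is GAAA, 2 bases of any kind and GAAA again. Ifit3 (chr19:34583279-34583578, plus strand) holds 2 matches, which begin 156 and 122 bases before the start site. Rsad2 (chr12:26456403-26456702, minus strand) holds 1 match, 120 bases before it. Isg15 (chr4:156200769-156201068, minus strand) holds 3 overlapping matches, which begin 78, 72 and 66 bases before the start site. Cxcl10 (chr5:92348840-92349139, minus strand) holds 1 match, 213 bases before it.
Ifit3: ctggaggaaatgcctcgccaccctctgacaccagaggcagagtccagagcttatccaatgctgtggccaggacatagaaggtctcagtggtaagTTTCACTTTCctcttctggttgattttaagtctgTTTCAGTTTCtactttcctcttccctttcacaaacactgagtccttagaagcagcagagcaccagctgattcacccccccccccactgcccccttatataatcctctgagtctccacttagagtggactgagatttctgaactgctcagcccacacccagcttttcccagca
Rsad2: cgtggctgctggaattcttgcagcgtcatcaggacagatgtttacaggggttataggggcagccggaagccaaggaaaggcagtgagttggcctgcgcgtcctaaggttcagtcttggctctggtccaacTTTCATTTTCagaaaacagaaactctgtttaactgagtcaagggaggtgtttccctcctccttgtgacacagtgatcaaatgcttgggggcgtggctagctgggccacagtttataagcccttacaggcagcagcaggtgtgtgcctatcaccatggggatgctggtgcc
Isg15: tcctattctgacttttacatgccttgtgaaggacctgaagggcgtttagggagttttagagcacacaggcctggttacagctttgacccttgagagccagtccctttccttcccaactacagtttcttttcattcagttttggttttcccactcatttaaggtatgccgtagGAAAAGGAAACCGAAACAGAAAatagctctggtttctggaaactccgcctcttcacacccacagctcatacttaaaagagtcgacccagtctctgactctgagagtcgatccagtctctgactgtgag
Cxcl10: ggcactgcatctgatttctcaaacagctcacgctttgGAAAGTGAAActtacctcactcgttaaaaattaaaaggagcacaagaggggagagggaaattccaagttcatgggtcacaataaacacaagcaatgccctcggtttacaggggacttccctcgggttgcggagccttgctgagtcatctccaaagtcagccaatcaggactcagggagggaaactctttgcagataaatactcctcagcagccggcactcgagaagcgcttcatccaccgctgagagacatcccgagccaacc
The motif occurred in 3.44% of all 32851 promoter windows of the table and in 3.92% of the 7338 windows of genes counted in the dendritic cells. By gene these shares were 3.99% and 4.79%. Of the 60 interferon-induced genes listed, 49 had a window and 28 of these held a match (57.1%). A match describes letters and is not a measured site. The 27 counted interferon-induced genes with a match had a median log2 ratio of -2.54 and the 20 without a match -2.75, so the ratio did not separate by this motif.

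Another element, the Y box CTGATTGG, is carried by some class II genes, among them H2-Aa and H2-Eb1 of the rule and H2-Oa, which is outside it. It is shown in capitals in 90 bases of 3 members: H2-Aa (chr17:34287845-34287934, minus strand), H2-Eb1 (chr17:34305745-34305834, plus strand) and H2-Oa (chr17:34092273-34092362, plus strand), where it begins 51, 62 and 46 bases before the start site.
H2-Aa: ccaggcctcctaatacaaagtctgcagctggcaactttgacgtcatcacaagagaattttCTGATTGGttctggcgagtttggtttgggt
H2-Eb1: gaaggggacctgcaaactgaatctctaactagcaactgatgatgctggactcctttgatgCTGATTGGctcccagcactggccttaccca
H2-Oa: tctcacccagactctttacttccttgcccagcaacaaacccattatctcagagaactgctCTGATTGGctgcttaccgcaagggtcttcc
These 8 letters, on either strand, occurred in 4.10% of all windows, or 4.70% of all genes with a window. They occurred in 4 of the 11 class II loading and control genes that had one (36.4%). They also occurred in 8 of 17 class I genes (47.1%). H2-Oa encodes a chain of the H2-O modulator of peptide loading.

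The rule set the class II and marker levels, which are given as a description. Summed class II UMIs per cell ran from 21 to 1324 with a median of 432 in DOX plus AMH, and from 21 to 941 with a median of 321 in DOX. Summed marker UMIs ran from 2 to 75 with a median of 25 in DOX plus AMH and from 2 to 63 with a median of 19 in DOX. Just inside the marker threshold stood 7 cells in each library with exactly 2 marker UMIs, whose class II medians were 59 UMIs in DOX plus AMH and 61 in DOX. Just outside it, with 1 marker UMI, stood 10 DOX plus AMH barcodes and 8 DOX barcodes with class II medians of 141 and 51 UMIs. C1q UMIs were nearly absent, 33 over all DOX plus AMH members and 32 over all DOX members.

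Genes outside the rule followed the label. CPM below means UMIs of a gene per 1000000 UMIs of the summed cells. Bcl11a, a transcription factor of dendritic progenitors, stood at 179 CPM in DOX plus AMH and 122 CPM in DOX, against 3.26 and 2.88 CPM in the C1q-high barcodes, which express macrophage genes. Btla, an inhibitory receptor that binds HVEM, had 81.2 and 94.4 CPM in dendritic cells of DOX plus AMH and DOX, against 0 and 1.15 CPM in C1q-high barcodes. Zbtb46, the factor that marks the conventional dendritic lineage, had 66.3 and 86.3 CPM, against 11.4 and 10.4 CPM there. Kmo, an enzyme of tryptophan breakdown, had 109 and 93.7 CPM, against 9.24 and 13.8 CPM there. All 4 genes were thus several fold higher in the dendritic cells than in the C1q-high barcodes of either library. Cells picked on class II and marker counts are no test of their own leading genes. Over 15 general dendritic genes, which include Flt3 of the rule, the summed level was 1643 CPM in DOX plus AMH and 1533 CPM in DOX. This compares with 309 and 223 CPM in C1q-high barcodes and 351 and 335 CPM in C1q-low myeloid barcodes. The C1q-low myeloid barcodes were not alike between libraries. There 10 B cell genes summed to 18923 CPM in DOX plus AMH and 164 CPM in DOX.

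T cell genes were at 0 (Cd3e, Cd3d, Trbc1 and Trbc2), and of 15 T, NK and innate lymphoid genes 9 were at 0 in DOX plus AMH and 11 in DOX. The list summed to 199 CPM in DOX plus AMH and 229 CPM in DOX, and to 304 and 375 CPM in the Cd209a gate, most of it Klrd1, a lectin-like receptor of NK cells, with 178 UMIs in DOX plus AMH and 273 UMIs in DOX. Il7r had 15 and 18 UMIs and Rora 15 and 21. The rule also let in cells with many UMIs of other types' genes, and those past the limits used here, 5 B cell UMIs or 100 haemoglobin or smooth muscle UMIs, were all in DOX plus AMH. There 7 members held 154 of the 165 UMIs of Cd79a, Cd79b, Ms4a1, Pax5 and Ebf1, genes of B cells, which also carry class II. A further DOX plus AMH member held 10016 haemoglobin UMIs and another held 146 UMIs of the smooth muscle genes Acta2 and Tagln, while no DOX member reached these limits. Among DOX members, 1 held 20 UMIs of endothelial genes. The 10 B cell genes listed summed to 471 CPM in DOX plus AMH, from 0 to 153 UMIs per cell, and to 108 CPM in DOX, from 0 to 6. Without these 9 cells the members were 0.878% of the DOX plus AMH barcodes (0.673 to 1.12) and 1.64% of the DOX barcodes.

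Gates of at least 2 UMIs split the cells further. The Cd209a gate held 41 DOX plus AMH cells, 57.7% of the members (45.4 to 69.4), and 51 DOX cells, 39.8% (31.3 to 48.9). The Xcr1 or Clec9a gate held 9 DOX plus AMH cells, 12.7% (5.96 to 22.7), and 25 DOX cells, 19.5% (13.1 to 27.5). In neither gate did the 2 intervals stand apart over all members, and no test of the shares was possible. Without the 9 members with genes of other types, the Cd209a gate held 62.9% in DOX plus AMH (49.7 to 74.8) and 39.8% in DOX (31.3 to 48.9), intervals that do not overlap. That exclusion was added after seeing the data. It took cells only from DOX plus AMH, most of them outside the Cd209a gate, which by itself raises the share there. The intervals overlapped in every planned setting, such as 53.3 to 78.3 and 35.1 to 53.9 with 4 marker UMIs required. The Cd209a gate held a median of 15416 UMIs per cell in DOX plus AMH and 10607 in DOX, and the Xcr1 or Clec9a gate 19201 and 13230. With cells thinned to 4000 UMIs and shallower ones left out, the Cd209a gate held 58.1% in DOX plus AMH and 38.4% in DOX, and the Xcr1 or Clec9a gate 9.68% and 18.8%. Cells with at least 3 UMIs of Ccr7, Fscn1 and Ccl22, genes of mature migratory cells, numbered 2 and 3. In DOX, 1 cell passed both the Cd209a and the Xcr1 or Clec9a gate, and in DOX plus AMH none did, which allows a share of up to 5.06%. Only 1 cell per library passed the Siglech gate, in DOX plus AMH the member with 10016 haemoglobin UMIs. All members together held 7 and 5 Siglech UMIs, 6.54 CPM in DOX plus AMH and 3.66 CPM in DOX. Siglech stood higher in C1q-low myeloid barcodes, at 21.9 and 54.0 CPM. The rule left out cells with fewer than 20 class II UMIs, so the number of plasmacytoid cells in the uterus was not measured. The remaining 18 DOX plus AMH cells, 25.4% (15.8 to 37.1), and 47 DOX cells, 36.7% (28.4 to 45.7), passed no gate.

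**Figure D1:**
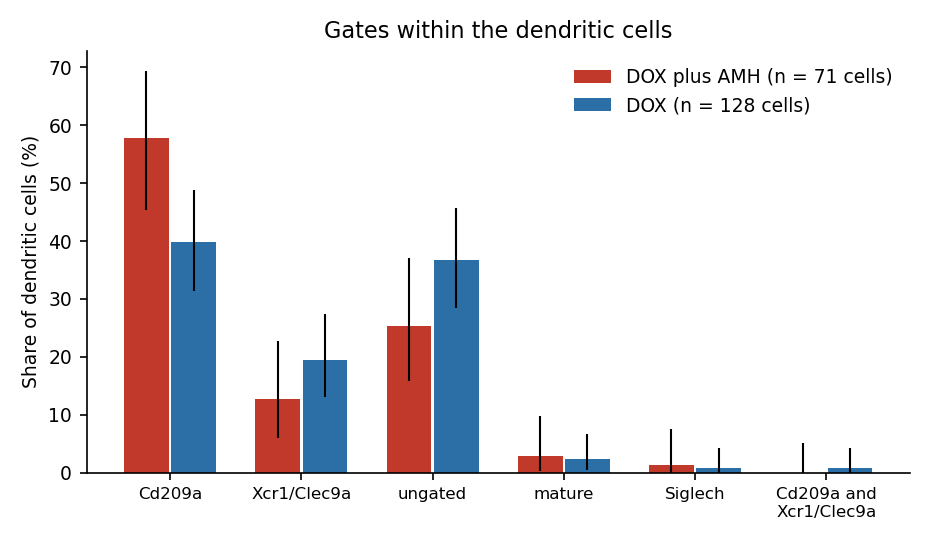
Share of dendritic cells in each gate (y axis, percent of members) for DOX plus AMH (71 cells, left bars) and DOX (128 cells, right bars), with exact 95% binomial intervals as error bars. The Cd209a gate held 57.7% and 39.8% of the cells, the Xcr1 or Clec9a gate 12.7% and 19.5%, and the intervals of each pair overlap over all members. Without the 9 members with genes of other types those of the Cd209a gate, 49.7 to 74.8 and 31.3 to 48.9, do not. That exclusion was added after seeing the data and took cells only from DOX plus AMH.

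Each gate carried genes that it did not use. In the Xcr1 or Clec9a gate, Irf8, the factor that type 1 cells depend on, stood at 1174 CPM in DOX plus AMH and 1233 CPM in DOX, against 77.0 and 66.3 CPM in the members outside the gate. Cadm1, an adhesion molecule of type 1 cells, had 287 and 179 CPM inside and 1.13 and 8.16 CPM outside, although a single cell held 51% of its UMIs in DOX plus AMH and 53% in DOX. Tlr3, a sensor of double-stranded RNA, had 186 CPM inside in DOX plus AMH and 135 CPM in DOX, and 0 and 8.16 CPM outside. Itgae, which encodes the CD103 integrin, had 149 and 254 CPM inside, and 0 and 2.04 CPM outside. Itgam and Sirpa, genes of type 2 and other myeloid cells, were at 0 UMIs in this gate in DOX plus AMH and at 1 UMI each in DOX.

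The Cd209a gate carried Mgl2 and Clec10a, lectins of type 2 cells. Mgl2 had 600 CPM in DOX plus AMH and 582 CPM in DOX inside the gate, and 11.9 and 17.7 CPM outside it. Clec10a had 391 and 340 CPM inside, and 59.6 and 47.9 CPM outside. Il1rl1, the receptor of IL-33, had 70.6 and 68.0 CPM inside, and 0 and 6.30 CPM outside. Tnip3, which restrains NF-kB signalling, had 428 and 460 CPM inside, and 95.3 and 56.7 CPM outside. Irf8 was low here, 50.7 CPM in DOX plus AMH and 22.7 CPM in DOX. In the Xcr1 or Clec9a gate the 16 type 1 genes listed summed to 6446 CPM in DOX plus AMH and 6156 CPM in DOX. In the Cd209a gate they summed to 1062 and 896 CPM. The 16 type 2 genes listed summed to 4435 and 4166 CPM in the Cd209a gate and 393 and 357 CPM in the other gate. They also summed to 4002 and 2191 CPM in ungated cells and 3371 and 2452 CPM in C1q-high barcodes. Both lists include gate genes. The 2 main gates thus differed by these lists, but the type 2 list was not particular to the Cd209a gate.

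The ungated cells went partly against the label. The 12 monocyte genes listed summed to 13906 CPM in ungated DOX plus AMH cells and 14938 CPM in ungated DOX cells, against 3669 and 5604 CPM in the Cd209a gate. Lyz2, the lysozyme of monocytes and macrophages, had 6272 CPM in ungated DOX plus AMH cells and 3555 CPM in ungated DOX cells, and 461 and 553 CPM in the other members. Ly6c2, a surface marker of inflammatory monocytes, had 129 CPM in ungated DOX plus AMH cells and 1874 CPM in ungated DOX cells. That difference was not limited to ungated cells. Without thinning, 0% of DOX plus AMH cells and 40% of DOX cells in the Xcr1 or Clec9a gate held a Ly6c2 UMI. The shares were 7.32% and 29.4% in the Cd209a gate and 16.1% and 41.4% in C1q-high barcodes. Lymphoid barcodes ran the other way, at 16% and 9.76%. Whether Ly6c2 reflects monocyte identity here was not tested. Of the 7 members with B cell genes, 6 were also among the 18 ungated DOX plus AMH cells. The 10 B cell genes listed summed to 2130 CPM in ungated DOX plus AMH cells and 162 CPM in ungated DOX cells. Values given for ungated cells include these 6 cells, so the ungated groups of the 2 libraries were not alike in cell type. General dendritic genes summed to 880 CPM in ungated DOX plus AMH cells and 1157 CPM in ungated DOX cells, below the 1842 and 1559 CPM of the Cd209a gate. They are called ungated cells here, and the main comparison is also given without them.

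Across genes, 7085 had at least 30 UMIs over both sums and are called counted. A gene is called higher or lower in DOX plus AMH if its CPM differed at least 1.5-fold. Of the counted genes 9.89% were lower and 15.7% higher, 701 and 1111 genes, and the median log2 ratio of DOX plus AMH over DOX was 0.08. The split depends on the scaling: TMM gave 933 lower and 797 higher, and median-of-ratios scaling 1049 lower and 710 higher. These scalings move the median of all genes, and every log2 ratio, by -0.12 and -0.16.

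The interferon-induced genes were far below that background in DOX plus AMH. Of 56 counted, 55 were at least 1.5-fold lower and 0 higher, and the median log2 ratio was -2.51, with members from -7.83 to -0.23. Their summed level was 3110 CPM in DOX plus AMH and 16424 CPM in DOX. Leaving out the 9 members with genes of other types gave 55 of 56 lower and a median of -2.44, and leaving out the ungated cells gave 50 of 51 lower and a median of -2.30.

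Among antiviral effectors, Ifit3, which binds viral RNA with its relatives, had 2 UMIs in 1 cell in DOX plus AMH, 1.87 CPM, and 579 UMIs in 68 cells in DOX, 424 CPM. Its log2 ratio was -7.83, with a counting interval of -10.87 to -5.97. Rsad2 (viperin), whose product makes a chain-ending nucleotide, had 6 UMIs in 5 cells in DOX plus AMH and 348 UMIs in 67 cells in DOX, 255 CPM, a log2 ratio of -5.51 (-6.96 to -4.37). Isg15, a ubiquitin-like modifier, had 59.8 CPM in DOX plus AMH and 1480 CPM in DOX, a log2 ratio of -4.63 (-5.01 to -4.27). Oasl1 had 1 UMI in DOX plus AMH and 140 UMIs in DOX, and Ifit2 had 2 and 243. Isg15 was found in 23 of 71 DOX plus AMH cells and in 96 of 128 DOX cells, while Ifit3, Rsad2, Oasl1 and Ifit2 were each found in at most 5 DOX plus AMH cells and in at least 55 DOX cells.

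Of the regulators, Irf7, which amplifies interferon production, had 18.7 CPM in DOX plus AMH and 816 CPM in DOX, a log2 ratio of -5.45 (-6.17 to -4.82). Stat2, which carries the receptor's signal, had 57.9 CPM in DOX plus AMH and 160 CPM in DOX (log2 ratio -1.47, -1.90 to -1.06). Irf9, its partner, had 56.0 CPM in DOX plus AMH and 65.9 CPM in DOX and was the 1 counted member that did not reach 1.5-fold. Usp18, which damps the receptor, had 19.6 CPM in DOX plus AMH and 177 CPM in DOX. The receptor genes themselves were close: Ifnar1 had 64.4 and 45.4 CPM (log2 ratio 0.51, -0.01 to 1.02) and Ifnar2 142 and 168 CPM (log2 ratio -0.24, -0.55 to 0.06). Stat2 and Irf9 thus differed much less than the effector genes, and Irf9 not beyond counting error.

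Several of the lowest genes were not on that list. The list does not hold every gene that interferon can induce, so a gene outside it is not thereby unrelated to interferon. Sct, which encodes the hormone secretin, had 0 UMIs in DOX plus AMH and 307 UMIs in 29 cells in DOX, 225 CPM. Against a floor of 3 UMIs over the group this is 80.2-fold lower, a value that the floor sets and not a lower bound. Slfn4, a schlafen gene of myeloid cells, had 0 UMIs in DOX plus AMH and 176 UMIs in DOX, 46.0-fold lower against the same floor. Ly6a, which encodes the Sca-1 surface protein, had 14.9 CPM in DOX plus AMH and 844 CPM in DOX, a log2 ratio of -5.82 (-6.63 to -5.11), or -7.33 without the 9 members with genes of other types. Plac8 had 599 CPM in DOX plus AMH and 2601 CPM in DOX (log2 ratio -2.12). In DOX, 24% of the Sct UMIs and 20% of the Slfn4 UMIs came from a single cell each.

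**Figure D2:**
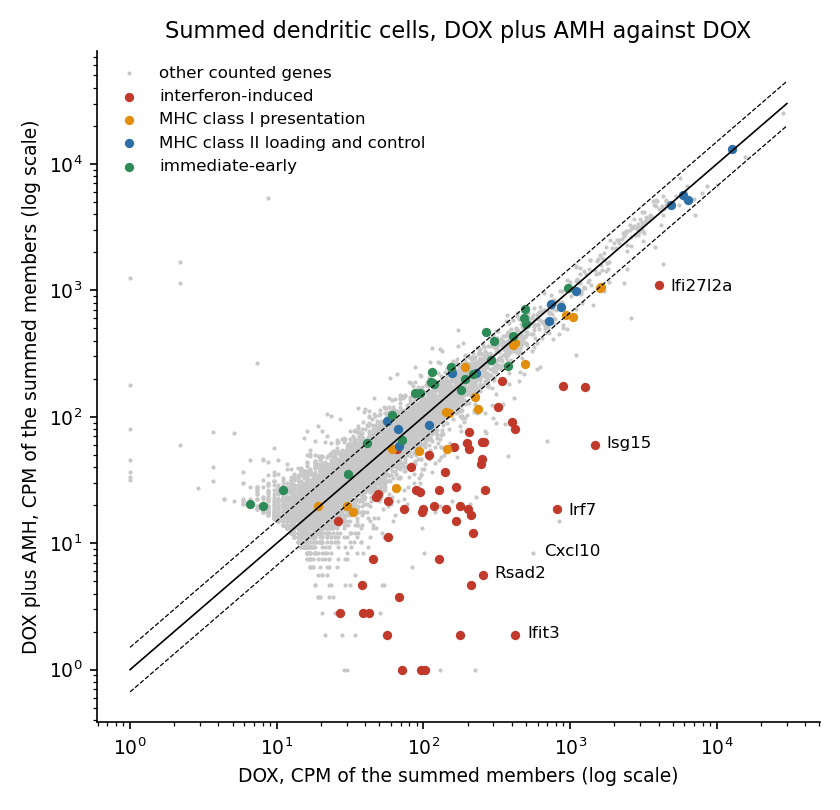
CPM of each counted gene in the summed dendritic cells of DOX plus AMH (y axis, log scale) against DOX (x axis, log scale), with 4 gene lists in colour, equality as a solid line, 1.5-fold as dashed lines and values below 1 CPM drawn at 1. Interferon-induced genes such as Ifit3 (1.87 and 424 CPM) and Isg15 (59.8 and 1480 CPM) lie below the dashed lines, while class II genes lie between the dashed lines except H2-Ob (92.4 and 56.3 CPM).

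Single cells showed the same difference. UMIs of interferon-induced genes per 10000 UMIs ran between 5.76 and 221 with a median of 23.2 over the 71 DOX plus AMH cells, and between 7.17 and 691 with a median of 168 over the 128 DOX cells. The ranges overlap at the low end: 111 of 128 DOX cells were above the DOX plus AMH median, and 1 of 71 DOX plus AMH cells was above the DOX median. At the high end 46 DOX cells were above every DOX plus AMH cell. The quartiles were 14.3 and 38.8 in DOX plus AMH and 37.1 and 318 in DOX, so DOX cells varied more among themselves. Cells of 1 pool are not replicates, and these counts describe the 2 libraries.

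The 3 largest gates each held the difference, at their own levels. In the Xcr1 or Clec9a gate the median was 18.1 per 10000 in DOX plus AMH and 73.1 in DOX, and 24 of 27 counted genes were lower, against 15.8% of all genes counted in that gate. In the Cd209a gate the medians were 24.1 and 58.2, and 47 of 48 were lower, against 10.4%. In the ungated cells the medians were 27.7 and 301, and 52 of 53 were lower, against 20.9%. Isg15 had 5.31 CPM in DOX plus AMH and 855 CPM in DOX in the Xcr1 or Clec9a gate, 36.8 and 849 CPM in the Cd209a gate, and 161 and 2900 CPM in the ungated cells. Cxcl10 had 12.3 CPM in DOX plus AMH and 607 CPM in DOX in the Cd209a gate and 0 and 1115 CPM in the ungated cells, but in the Xcr1 or Clec9a gate only 0 and 4 UMIs.

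**Figure D3:**
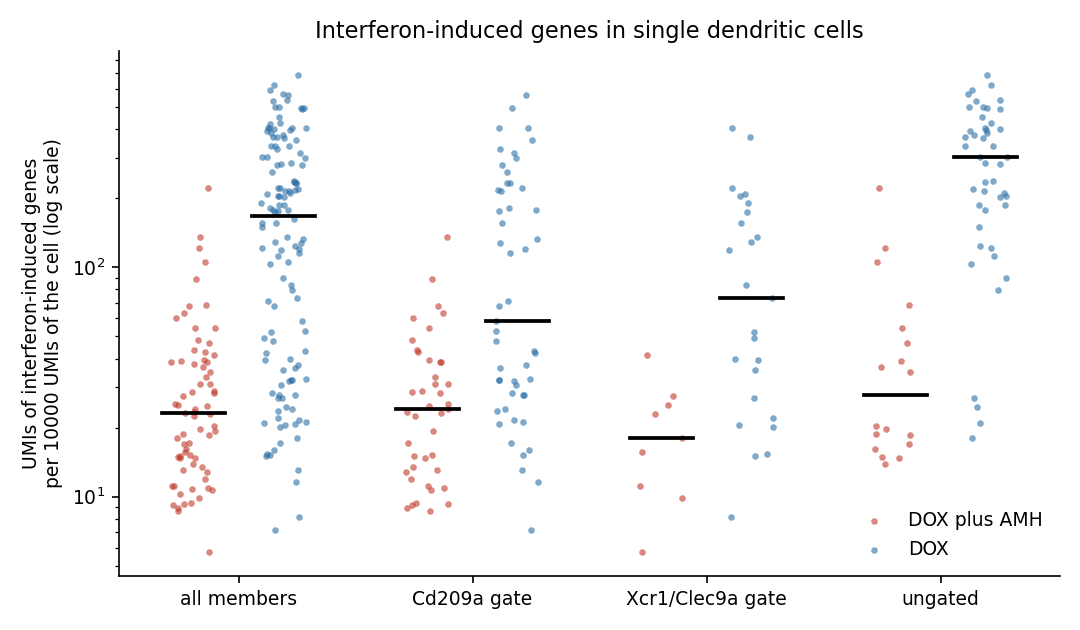
UMIs of interferon-induced genes per 10000 UMIs (y axis, log scale) in each dendritic cell (1 point), for all members and for 3 gates, DOX plus AMH left of DOX, with medians as black lines. The medians are 23.2 and 168 over all members, and the DOX points spread upward to 691.

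Since DOX plus AMH dendritic cells held more UMIs per cell, shares were compared at a fixed depth. At 4000 UMIs per cell, which 67 DOX plus AMH and 117 DOX cells reached, 11.9% of DOX plus AMH cells (5.3 to 22.2) and 68.4% of DOX cells (59.1 to 76.7) held an Isg15 UMI. Ifit3 was found in 1.5% (0.0 to 8.0) and 41.0% (32.0 to 50.5), and Rsad2 in 1.5% (0.0 to 8.0) and 42.7% (33.6 to 52.2). Before thinning the Isg15 shares were 32.4% and 75.0%. In a random set of barcodes outside the blood-derived populations, which includes cells that make these genes, the Isg15 shares at the same depth were 7.87% in DOX plus AMH and 18.4% in DOX. The interval of the DOX plus AMH dendritic cells includes the share of those other cells, while the DOX interval stands above theirs. The level of free RNA was not measured, so how much of either share came from it was not tested.

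The other blood-derived populations differed in the same direction. The list's median log2 ratio was -1.72 in C1q-high barcodes, where 53 of 57 counted genes were lower, and -2.29 in C1q-low myeloid barcodes, where 56 of 56 were lower. In lymphoid barcodes it was -1.14, with 13 of 17 lower, and in all remaining uterine barcodes -0.89, with 44 of 57 lower. The share of all counted genes called lower was 9.19% in C1q-high, 15% in C1q-low myeloid, 17.1% in lymphoid and 4.37% in remaining barcodes. Isg15 in DOX stood at 1480 CPM in dendritic cells, 1530 CPM in C1q-high, 1694 CPM in C1q-low myeloid, 396 CPM in lymphoid and 137 CPM in remaining barcodes. These populations held genes of other types unevenly. In C1q-low myeloid barcodes B cell genes summed to 18923 CPM in DOX plus AMH and 164 CPM in DOX. In lymphoid barcodes erythroid or platelet genes summed to 21969 CPM in DOX plus AMH and 31.4 CPM in DOX. Whether the size differs between populations could not be tested with 1 library each.

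**Figure D4:**
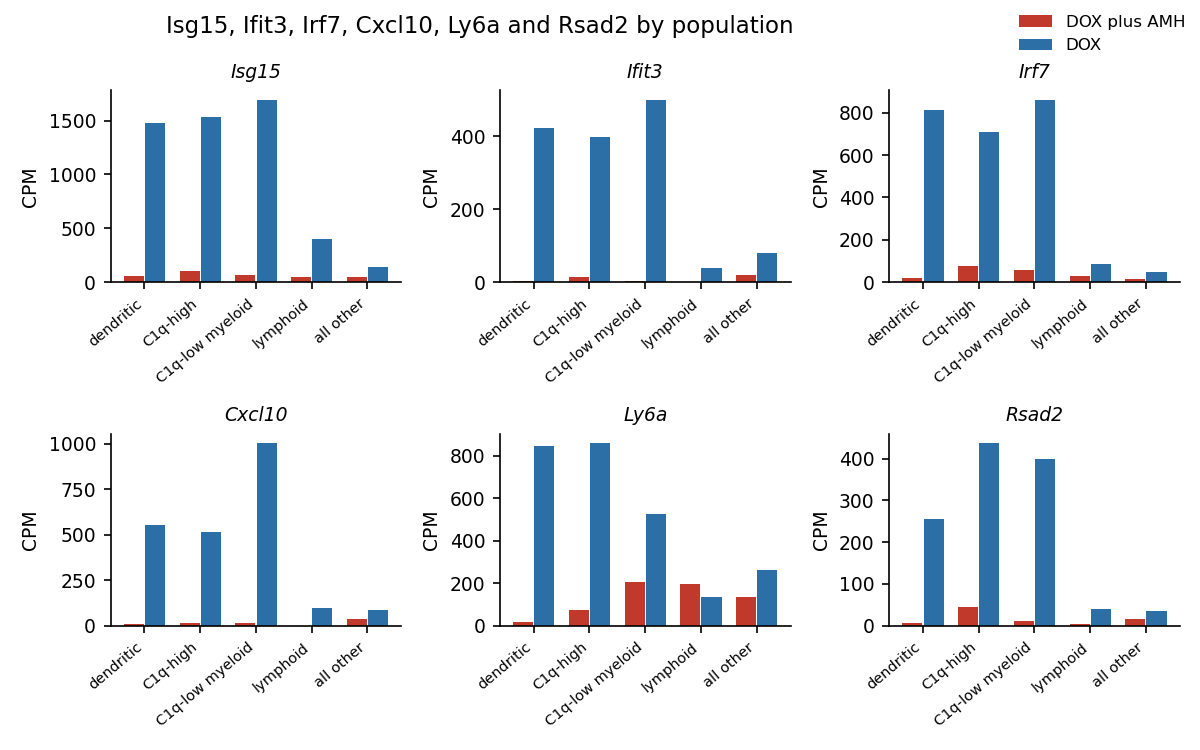
CPM of Isg15, Ifit3, Irf7 and Rsad2 of the interferon-induced list and of Cxcl10 and Ly6a (y axes, own scale per panel) in the summed barcodes of 5 populations (x axes), with DOX plus AMH left and DOX right in each pair. DOX bars are tall in dendritic, C1q-high and C1q-low myeloid barcodes, with Isg15 at 1480, 1530 and 1694 CPM, and lower in lymphoid and remaining barcodes, while Ly6a in lymphoid barcodes was the reverse, at 195 CPM in DOX plus AMH and 133 CPM in DOX.

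Chemokine genes split. Of 12 counted, 7 were lower and 4 higher, against 9.89% and 15.7% of all genes, with a median log2 ratio of -1.30, and their summed level was 1043 CPM in DOX plus AMH and 1904 CPM in DOX. That median became -2.94 with 4 marker UMIs required, -2.73 after thinning, -2.39 at 100 UMIs and -2.77 in the Xcr1 or Clec9a gate. Cxcl10, which draws T and NK cells through Cxcr3, had 9 UMIs in 3 DOX plus AMH cells (8.40 CPM) and 760 UMIs in 38 DOX cells (556 CPM), a log2 ratio of -6.05 (-7.18 to -5.12). Cxcl9, another Cxcr3 ligand, had 3 UMIs in DOX plus AMH and 69 UMIs in 6 DOX cells. Ccl2, which draws monocytes, had 23.3 CPM in DOX plus AMH and 229 CPM in DOX, with 39% of the DOX UMIs in 1 cell. On the higher side, Ccl6 had 489 CPM in DOX plus AMH and 172 CPM in DOX (log2 ratio 1.51, 1.28 to 1.74). Ccl24 had 64 UMIs in DOX plus AMH, 69% of them in 1 cell, and 3 UMIs in DOX. Ccl2, Ccl6 and Ccl24 stood at less than 0.2 of their level in another population, where free RNA can add to them.

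Antigen presentation differed between its 2 arms. Of 14 counted class II loading and control genes, 1 was higher and 0 lower, with a median of -0.06, against 15.7% and 9.89% of all counted genes. H2-Aa had 5637 CPM in DOX plus AMH and 5884 CPM in DOX, and Cd74, the invariant chain, had 13059 and 12742 CPM, though the rule used both. Outside the rule, Ciita, the master switch of class II, had 222 CPM in DOX plus AMH and 157 CPM in DOX (log2 ratio 0.51, 0.23 to 0.78). H2-Ob, the partner chain of H2-Oa, had 92.4 and 56.3 CPM and was the 1 member past 1.5-fold. H2-DMb1, a chain of the peptide exchanger, had 575 CPM in DOX plus AMH and 712 CPM in DOX (log2 ratio -0.31, -0.46 to -0.16). The list includes the 4 genes of the rule, so its count and median are a description. In ungated cells 4 of 11 class II genes were lower and 0 higher, with a median of -0.42, against 20.9% of all genes counted there.

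Of 19 class I genes, 11 were lower and 0 higher, against 9.89% and 15.7% of all counted genes. Their median was -0.61, with summed levels of 5348 CPM in DOX plus AMH and 7913 CPM in DOX. B2m, the light chain, had 1071 CPM in DOX plus AMH and 1614 CPM in DOX (log2 ratio -0.59, -0.70 to -0.49). Psmb9, a subunit of the immunoproteasome, had 262 and 493 CPM (log2 ratio -0.91, -1.12 to -0.71). Nlrc5, the class I counterpart of Ciita, had 27.1 and 65.1 CPM (log2 ratio -1.27, -1.92 to -0.65). Of the 17 class I genes with a promoter window, 4 held the ISRE core. By gate, 12 of 16 were lower in ungated cells, with a median of -1.04, 3 of 16 in the Cd209a gate, with -0.35, and 6 of 15 in the Xcr1 or Clec9a gate, with -0.40. Of all genes counted in these gates 20.9%, 10.4% and 15.8% were lower.

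Lysosomal genes showed little on balance, with 1 higher and 3 lower of 15, against 15.7% and 9.89% of all counted genes. Their median was 0.03, which is -0.13 with median-of-ratios scaling. Cst3, an inhibitor of cysteine proteases and an abundant dendritic transcript, had 6849 CPM in DOX plus AMH and 10030 CPM in DOX. In the Cd209a gate Cst3 had 5180 and 5255 CPM, in the Xcr1 or Clec9a gate 18625 and 23575 CPM, and in ungated cells 1540 and 3761 CPM. Napsa, an aspartic protease used by the rule, had 453 CPM in DOX plus AMH and 834 CPM in DOX. Napsa was also lower within each gate, at 579 and 860 CPM in the Cd209a gate.

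Of 13 co-stimulatory and co-inhibitory genes, 4 were lower and 1 higher, with a median of -0.38, against 9.89% and 15.7% of all counted genes. Cd40, the receptor of T cell help, had 15.9 CPM in DOX plus AMH and 46.1 CPM in DOX (log2 ratio -1.54, -2.40 to -0.75). Cd274, which encodes PD-L1, had 43.0 CPM in DOX plus AMH and 119 CPM in DOX (log2 ratio -1.47, -1.98 to -0.99). Cd274 turned round in the Xcr1 or Clec9a gate, with 18 UMIs in DOX plus AMH and 10 UMIs in DOX. Cd83, a marker of activation, had 502 and 429 CPM, and Cd86, the ligand of CD28, 192 and 262 CPM, both within 1.5-fold. Among cytokines 2 of 10 were higher and 3 lower, against 15.7% and 9.89% of all counted genes. Il18 had 23.3 CPM in DOX plus AMH and 61.5 CPM in DOX, and Il15 27.1 and 49.8 CPM. Il6 had 33 UMIs in 8 DOX plus AMH cells and 13 UMIs in 11 DOX cells. Il12b, a subunit of IL-12, had 49 UMIs in DOX plus AMH, all in 1 cell, and 0 in DOX. Il1b had 189 and 214 CPM and did not differ beyond counting error.

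C-type lectin and Fc receptor genes had 6 higher and 3 lower of 19, against 15.7% and 9.89% of all counted genes. Fcgr1, the high-affinity IgG receptor of monocyte-derived cells, had 20.5 CPM in DOX plus AMH and 209 CPM in DOX (log2 ratio -3.34, -4.04 to -2.72). Fcgr1 was found in 10 of 71 DOX plus AMH cells and in 69 of 128 DOX cells. By gate, without thinning, these shares were 0% and 20% in the Xcr1 or Clec9a gate and 7.32% and 49.0% in the Cd209a gate. In ungated cells they were 38.9% and 80.9%. Whether Fcgr1 reflects monocyte-derived cells here was not tested. Cd209d, a relative of Cd209a, had 76.6 CPM in DOX plus AMH and 16.1 CPM in DOX (log2 ratio 2.25, 1.56 to 3.00). Within the Cd209a gate Cd209d had 103 and 34.9 CPM. Clec4e had 33 UMIs in 5 DOX plus AMH cells and 5 UMIs in 3 DOX cells. Cd209a itself, a rule gene, had 733 CPM in DOX plus AMH and 509 CPM in DOX, and 1199 and 1196 CPM within its gate.

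Receptors for migration had 3 higher and 1 lower of 16, with a median of 0.29. Of all counted genes 15.7% were higher and 9.89% lower, and both this list and the pattern recognition list stood near those shares. Ccr2, which brings monocyte-derived and type 2 cells out of the marrow, had 640 CPM in DOX plus AMH and 369 CPM in DOX (log2 ratio 0.79, 0.63 to 0.96). Ccr2 was also higher in each gate, at 671 and 401 CPM in the Cd209a gate, 494 and 319 CPM in the Xcr1 or Clec9a gate and 815 and 413 CPM in ungated cells. Itgam, the CD11b integrin, had 273 CPM in DOX plus AMH and 125 CPM in DOX, and Cxcr4 49.5 and 18.3 CPM. Itgae had 26.1 CPM in DOX plus AMH and 73.2 CPM in DOX, beside the smaller Xcr1 or Clec9a gate of DOX plus AMH. Pattern recognition genes had 2 higher and 1 lower of 12, with a median of -0.06, among them the DNA sensor Cgas at 25.2 CPM in DOX plus AMH and 46.8 CPM in DOX.

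Transcription factors of dendritic cells had 4 higher and 1 lower of 22, with a median of -0.14, against 15.7% and 9.89% of all counted genes. Nfil3, which directs progenitors to the type 1 fate, had 63.5 CPM in DOX plus AMH and 26.3 CPM in DOX (log2 ratio 1.27, 0.67 to 1.89). Irf4, a factor of type 2 cells, had 57.9 and 32.2 CPM (log2 ratio 0.85, 0.27 to 1.44). Klf4 had 226 CPM in DOX plus AMH and 113 CPM in DOX (log2 ratio 0.99, 0.70 to 1.29). Klf4 turned round by gate, with 413 and 55.8 CPM in ungated cells, 223 and 148 CPM in the Cd209a gate, and 15.9 and 98.4 CPM in the Xcr1 or Clec9a gate. Irf8 had 270 CPM in DOX plus AMH and 396 CPM in DOX, and 1174 and 1233 CPM within the Xcr1 or Clec9a gate.

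**Figure D5:**
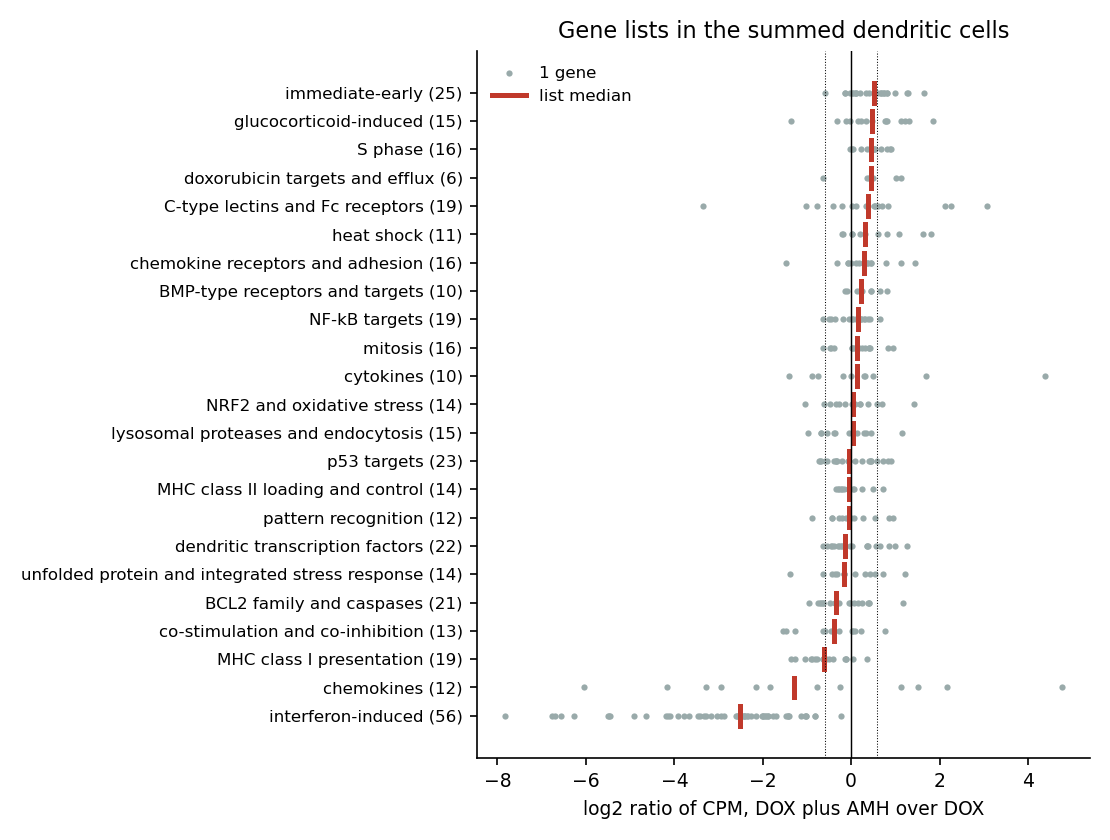
Log2 ratio of CPM, DOX plus AMH over DOX (x axis), for each counted gene (grey points) of 23 lists (y axis, number of counted genes in brackets), with list medians as red bars and 1.5-fold as dotted lines. The interferon-induced list stands lowest at -2.51, chemokines follow at -1.30, and the immediate-early list is highest at 0.52.

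The immediate-early and glucocorticoid-induced lists stood on the other side. Of 25 immediate-early genes 12 were higher and 1 lower, with a median of 0.52, and of 15 glucocorticoid-induced genes 7 were higher and 1 lower, with a median of 0.48. Against the 15.7% of all genes called higher these counts are large, but the immediate-early counts differed by gate. Immediate-early genes had 11 of 19 higher in ungated cells, 2 of 22 in the Cd209a gate and 4 of 17 in the Xcr1 or Clec9a gate, with medians of 0.88, 0.08 and 0.23, while 22.8%, 16% and 13.8% of all genes counted in those gates were higher. Fos had 1186 CPM in DOX plus AMH and 340 CPM in DOX in ungated cells, and 617 and 548 CPM in the Cd209a gate. Over single cells, immediate-early UMIs per 10000 had medians of 57.2 in DOX plus AMH and 37.6 in DOX in ungated cells. The medians ran the other way in the Cd209a gate, at 66.7 and 71.9, and in the Xcr1 or Clec9a gate, at 21.9 and 28.2. Errfi1, a feedback inhibitor of EGFR and a glucocorticoid target, had 42.0 CPM in DOX plus AMH and 11.7 CPM in DOX (log2 ratio 1.84, 0.99 to 2.77). Mt1, a metallothionein, had 331 and 133 CPM (log2 ratio 1.32, 1.05 to 1.58), while Mt2 had 7 and 23 UMIs. Per1, a clock gene, had 37.4 and 16.1 CPM. By gate, 3 of 11 glucocorticoid-induced genes were higher in the Cd209a gate, 3 of 4 in the Xcr1 or Clec9a gate and 2 of 5 in ungated cells. Their median log2 ratios were 0.13, 1.24 and 0.49. Over single cells, their UMIs per 10000 had medians of 21.1 in DOX plus AMH and 14.9 in DOX in the Cd209a gate. The medians were 8.78 and 4.70 in the Xcr1 or Clec9a gate and 14.7 and 7.17 in ungated cells. The same glucocorticoid list had medians of 0.68 in C1q-high and 0.73 in remaining barcodes. The immediate-early list had medians of 0.16 in C1q-high, 0.47 in C1q-low myeloid, -0.03 in lymphoid and 0.55 in remaining barcodes.

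Of 11 heat shock genes 5 were higher and 0 lower, against 15.7% and 9.89% of all counted genes. Hspa1b, an inducible Hsp70, had 350 CPM in DOX plus AMH and 114 CPM in DOX (log2 ratio 1.62, 1.34 to 1.90), and was higher in every gate, with 284 and 66.3 CPM in the Cd209a gate. Hsph1 had 95.2 and 27.1 CPM, and 361 and 49.2 CPM in the Xcr1 or Clec9a gate. The constitutive chaperones Hspa8 (1450 and 1646 CPM) and Hsp90ab1 (1722 and 1692 CPM) were close. Beside the same shares, the unfolded protein list had 2 higher and 2 lower of 14, the NF-kB list 1 and 1 of 19, and the NRF2 list 2 and 2 of 14.

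Targets of p53, which doxorubicin damage activates, did not differ on balance. Of 23 counted, 3 were higher and 4 lower, with a median of -0.05, against 15.7% and 9.89% of all counted genes. Cdkn1a, the p21 cell cycle inhibitor, had 656 CPM in DOX plus AMH and 754 CPM in DOX (log2 ratio -0.20, -0.34 to -0.06), and a UMI in 71.6% and 73.5% of cells at 4000 UMIs. Mdm2, which degrades p53, had 115 and 121 CPM, and Ccng1 205 and 211 CPM. Bax, which opens mitochondria in apoptosis, had 354 CPM in DOX plus AMH and 569 CPM in DOX (log2 ratio -0.68, -0.86 to -0.50). Among 21 BCL2 family and caspase genes 6 were lower and 1 higher, beside the same 9.89% and 15.7%. The higher one was Bcl2l11 (BIM), with 114 CPM in DOX plus AMH and 50.5 CPM in DOX (log2 ratio 1.17, 0.74 to 1.62). Casp1 had 24.3 and 46.8 CPM. In the Cd209a gate p53 targets had 7 lower and 3 higher of 20, with a median of -0.33, against 10.4% and 16% of all genes counted there.

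Of 16 S phase genes 4 were higher and 0 lower, with a median of 0.45. Of 16 mitosis genes 2 were higher and 1 lower, with a median of 0.14 that is -0.02 with median-of-ratios scaling. Of all counted genes 15.7% were higher and 9.89% lower, the shares to set beside these lists and the BMP list below. In the gate sums 8 of 10 mitosis genes were higher in the Cd209a gate (median 1.15), where 16% of all counted genes were. In the Xcr1 or Clec9a gate 2 of 8 were lower and 0 higher (median -0.33), against 15.8% and 13.8% there. The medians over single cells did not show this split. Mitosis UMIs per 10000 had medians of 0.94 in DOX plus AMH and 0.98 in DOX in the Cd209a gate. There single cells reached 79.7 and 67.0. In the Xcr1 or Clec9a gate the medians were 1.14 and 0.91. Top2a, the doxorubicin target of dividing cells, had 143 UMIs in DOX plus AMH and 138 UMIs in DOX, in 15 cells of each library. At 4000 UMIs it was found in 17.9% of DOX plus AMH cells (9.6 to 29.2) and 7.7% of DOX cells (3.6 to 14.1), intervals that overlap. S phase UMIs per 10000 had a median of 15.9 over the 9 DOX plus AMH cells of the Xcr1 or Clec9a gate and 2.2 over the 25 DOX cells of that gate, while in the Cd209a gate the medians were 2.7 and 1.9. The efflux pump gene Abcb1b had 68.2 CPM in DOX plus AMH and 106 CPM in DOX. BMP-type receptors and targets, which share the pathway of AMH, had 2 higher and 0 lower of 10, among them the type II receptor Bmpr2 at 67.2 and 38.1 CPM. Id2, a BMP target and a factor of dendritic cells, had 204 and 225 CPM.

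Among genes with at least 60 UMIs that reached 0.2 of their level in every other population, the highest ratios were those of Lyz1, Bank1, Cd209d, Chka and Skint3. Lyz1 had 81 UMIs in DOX plus AMH, 98% of them in 1 cell, and 5 in DOX. Bank1, a B cell scaffold, had a log2 ratio of 2.51 that became -1.35 without the 9 members with genes of other types. Chka, choline kinase, had 68.2 CPM in DOX plus AMH and 15.4 CPM in DOX (log2 ratio 2.15, 1.43 to 2.92), found in 26 of 71 and 13 of 128 cells. Skint3, an immunoglobulin-like gene, had 90 UMIs in 30 DOX plus AMH cells and 26 UMIs in 19 DOX cells (log2 ratio 2.14). Mpp7, a polarity scaffold, had 201 and 59.3 CPM (log2 ratio 1.76, 1.38 to 2.15). Mpp7 was higher in each gate, at 216 and 78.5 CPM in the Cd209a gate, 122 and 49.2 CPM in the Xcr1 or Clec9a gate and 231 and 44.6 CPM in ungated cells. Smpdl3a, a phosphodiesterase, had 118 and 35.9 CPM, in 45 of 71 and 29 of 128 cells.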

How the data were processed

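The 2 droplet libraries of pooled mouse uteri hold 1 group each. The authors deposited raw UMI counts, made with Cell Ranger 7.0.0 on mm10, per the submitters' processing notes; counting options are not given in the sources used here. No barcode in the files was under 500 UMIs. Member counts were summed per library and scaled to CPM. Intervals at 95% are exact (Poisson for CPM, Clopper-Pearson for shares, a binomial division of the UMIs for ratios) and cover counting error only. Against 0, a floor of 3 UMIs per group was used. Genes with 30 UMIs or more over both libraries were counted and called past 1.5-fold. Shares of cells with a UMI used cells thinned to 4000 UMIs. Other blood-derived barcodes were C1q-high (10 C1q UMIs), C1q-low myeloid (5 UMIs of Lyz2, Csf1r, Fcgr1, Ccr2, Ly6c2 and Cd14) or lymphoid (3 UMIs of Cd3e, Cd3d, Cd3g, Trbc1, Trbc2, Nkg7 and Il7r). Scrublet (scanpy 1.11.5) marked 0 of 7065 DOX plus AMH barcodes and 396 of 7783 DOX barcodes, so it had not worked in DOX plus AMH and doublets were kept. The calculations were tested on simulated data. Python 3.11.15 was used, with edgeR 4.0.16 and DESeq2 1.42.0 for scaling factors.

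The members and gene lists were chosen with earlier results of these data known. The rule for named genes took, per list, the 4 of largest ratio and the 2 of highest level; the 12 lowest and 12 highest ratios among genes with 60 UMIs and 0.2 of their level in any other population; and leaders of the population and gates. Further list and gate genes were named after their values were seen. Some single genes are not reported here.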

Additional observations from a re-analysis of the deposited data

How the results depend on the processing

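No paired analysis was possible because each group is 1 library, and no library could be left out. The shares of members and of gates, the counts of genes and the interferon results were computed under other filters, scalings and subsets, 3 of them added after seeing the data. The median of the interferon-induced list stayed between -2.69 and -2.26. The share of members among blood-derived barcodes, 21.6% and 29.4%, has another denominator. The count of genes higher in DOX plus AMH, 1111, became 553 after thinning, 710 with median-of-ratios scaling, 318 at 100 UMIs, 2151 at 10 UMIs and 381 in the Xcr1 or Clec9a gate. The count of lower genes, 701, became 295 at 100 UMIs, 1217 at 10 UMIs and 436 in the Xcr1 or Clec9a gate, where 24 interferon-induced genes were lower among 27 counted. Fewer or more genes enter at other UMI minima; the other causes were not tested. Removing the 6% of barcodes with the highest Scrublet scores took out 0 DOX plus AMH members and 1 DOX member.

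Of 126 named genes called, 112 kept their sign in every alternative that gave a value. Log2 ratios that turned sign were, after thinning, C1qc at -0.47, Vsir at -0.021 and Por at -0.73; in the Cd209a gate, Clec9a at 0.82, Mcm2 at -0.51, Tpx2 at 1.10 and Acvr1 at -0.18; in the Xcr1 or Clec9a gate, Cd274 at 1.88, Vsir at -0.70, Ccl6 at -0.12, Klf4 at -2.63, Bcl2a1a at 0.18 and Aurkb at -0.38. Bank1 was -1.35 without members holding genes of other types, and Gm36723 0.35 as a mean of single-cell CPM. Depth limits single genes: the Xcr1 or Clec9a gate held 9 DOX plus AMH cells.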
